A study of Homo sapiens with 16 samples.

Results

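The genes described here handle the uptake, sensing, storage and release of iron and the last step and the breakdown of haem: TFRC, FTH1, FTL, SLC11A2, SLC40A1, ACO1, IREB2, HMOX1 and FECH. They were followed in U937, a human cell line from a monocytic leukaemia. The cells held AML1-ETO, the fusion of the transcription factor AML1 (RUNX1) with ETO (RUNX1T1), under the control of a tetracycline promoter. The members were all probe sets annotated to 1 of these symbols, plus 3 control probe sets of the array for the transferrin receptor, and they numbered 9 of 12626 probe sets, or 6 of 8228 annotated genes. The group was chosen by symbol, but with intensities of these same arrays in view, namely each group against control 0 h and induced against control at each hour. Its values and adjusted p, taken from the fit across all probe sets, therefore describe these arrays and are no independent evidence about the group. Of the 9 probe sets 4 belonged to TFRC and 1 each to FTL, SLC11A2, ACO1, HMOX1 and FECH. No probe set carried the symbol FTH1, SLC40A1 or IREB2 in the annotation used, and these genes were not analysed here.

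Induced cells were collected at 12, 24, 48 and 72 h, and uninduced control cells of the same line at 0, 24, 48 and 72 h, with 2 arrays in each of the 8 groups. Control and induced cells alike carried the construct, and the labels do not say whether the line is a single clone. Total RNA was hybridised to Affymetrix U95Av2 arrays. No control at 12 h was analysed here, so at 12 h induction and time in culture cannot be told apart. No label says that the 2 arrays of a group came from separate cultures, and the p-values measure only the spread between these arrays, which may be technical.

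Iron reaches most cells bound to transferrin, which the transferrin receptor TFRC carries into endosomes. There SLC11A2 (DMT1) moves the iron into the cytosol, where ferritin, a shell of FTH1 and FTL subunits, stores what is not used. SLC40A1 (ferroportin) exports iron, FECH (ferrochelatase) inserts it into protoporphyrin to make haem, and HMOX1 (haem oxygenase) takes haem apart again. When iron is short, the iron regulatory proteins ACO1 (IRP1) and IREB2 (IRP2) bind hairpins called iron-responsive elements. They then protect the TFRC transcript from decay and block the translation of ferritin transcripts.

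The FTL transcript shows what such an element looks like. The stretch below holds the core of the iron-responsive element at the 5′ end of the FTL transcript. It was read from the plus strand of GRCh38.p14 at chr19:48965329-48965358, bases 21 to 50 counted from the RefSeq start site. It stops at base 50, where the searched bases end, so the hairpin is not shown whole. Capitals mark the bulged C and the hairpin loop.

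FTL iron-responsive element: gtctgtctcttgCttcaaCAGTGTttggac

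The consensus of an iron-responsive element, a bulged C set 5 bases ahead of the loop, was searched on the transcribed strand in the first 50 bases after each RefSeq start site and occurred in 1.46% of 35116 windows. With a stem of 5 base pairs around the loop it occurred in 8 windows, 0.0228% of all, and FTL was the 1 gene of the list among them. FTH1 and HMOX1 had no window to search. Elements beyond the first 50 bases of a transcript could not be found this way. Through an element at the 5′ end the iron regulatory proteins act on translation, which arrays of RNA do not read.

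TFRC is the one member with called probe sets, so its promoter is shown too. These are the 250 bases before the RefSeq start site on the minus strand of GRCh38.p14, at chr3:196082091-196082340, with 2 motif matches in capitals.

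TFRC promoter: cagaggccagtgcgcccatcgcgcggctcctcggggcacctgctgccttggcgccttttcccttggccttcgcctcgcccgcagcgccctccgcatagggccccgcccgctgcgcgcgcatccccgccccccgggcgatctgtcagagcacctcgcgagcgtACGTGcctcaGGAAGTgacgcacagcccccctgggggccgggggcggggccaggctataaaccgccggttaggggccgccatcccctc

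Each motif was searched on both strands. The capitals ACGTG, the core of the hypoxia response element, start at -88. They occur in 18.5% of the 35116 promoter windows of the same RefSeq table, each the 250 bases before a start site. The capitals GGAAGT, an ETS site, start at -78 and occur in 19.5% of windows. The letters TGNGGT of the RUNX site that AML1 binds, found in 37.7% of windows, do not occur in the TFRC window, nor do the E-box CACGTG (6.34%) and TGACNNNGC, the core of the antioxidant response element (10.9%). ACGTG lies inside CACGTG, so these searches overlap. Of the 9 genes, 7 had a promoter in the RefSeq table, and FTH1 and HMOX1 did not.

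The deposited values are linear intensities, of which 25.8% are below 0. A floor of 135.61, the 40th percentile of all values, replaced every value under it ahead of the log2 step. Testing required values over 292.74, the overall median, on 2 or more of the 16 arrays, which 7827 probe sets and 7 of the 9 members met. HMOX1 and FECH did not pass. SLC11A2 passed only through 2 induced arrays, so it could be tested only because those were high. A probe set was called at a limma p under 0.05 after Benjamini-Hochberg adjustment over all 7827.

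The array check of the construct was RUNX1T1, the ETO part of the fusion. Of its 4 probe sets only 1 passed the filter on low values, and only through induced arrays. The values here are those of that probe set. It read at most 91.4 on every control array and 3974 to 10603 on the induced arrays at 48 and 72 h. At 12 h both induced arrays read under the floor, with -116.5 and 86.1. At 24 h the array labelled induced replicate 1 read 1592, while the array labelled induced replicate 2 read -47.5. For the members, the 24 h difference and the mean over times are therefore also given without that array. The monocytic markers LYZ, MNDA and CD4 exceeded the median of all values on all 16 arrays, whereas ITGAM and CSF1R lay at or under the floor on all 16. Their list of 12 summed to 10070.1 to 21561 on induced arrays and 9337 to 18757 on control arrays. The 17 erythroid markers summed to 7913 to 10855 on induced arrays and 7679 to 11877 on control arrays. Of these only SPTB, ALAS2 and EPOR were above the median of all values on all 16. EPOR read 3116 to 5473 and ALAS2 1328 to 2588, so the sums rest largely on a few bright genes. HBD, HBZ, EPB42, RHD, RHAG, BPGM and CA1 stayed under that median on every array, with a highest value of 280.8 (BPGM). The remaining erythroid markers exceeded it on some arrays at most. The 11 lymphoid markers summed to 2710 to 3923 on induced arrays and 2446 to 3910 on control arrays, with CD3G and CD79B at or under the floor throughout. Replicates correlated at r = 0.912 to 0.955.

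At the TFRC probe set of the gene annotation, called the gene probe set here, the signal was highest 12 h after induction and lowest 72 h after it. There induced cells at 12 h lay 4.06-fold above control cells at 0 h, and induced cells at 48 h lay 2.15-fold below their same-time controls. Intensities at 12 h were 6199 and 13106 in induced cells, against 2355 and 2089 in control cells at 0 h. Both induced arrays at 12 h stood above all 14 other arrays, and the 2 replicates differed more from each other than those of any other group at this probe set. The fitted difference was 2.02 on the log2 scale (SE 0.30), with a 95% interval of the fold of 2.59 to 6.39, and the limma adjusted p was 0.00429. The call held under all 9 other settings and with any 1 array left out (adjusted p at most 0.0315), where the log2 difference ranged from 1.48 to 2.56. The median difference of all tested probe sets was -0.15 in this comparison, and with each array centred on its median the TFRC difference was 2.27.

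**Figure D1:**
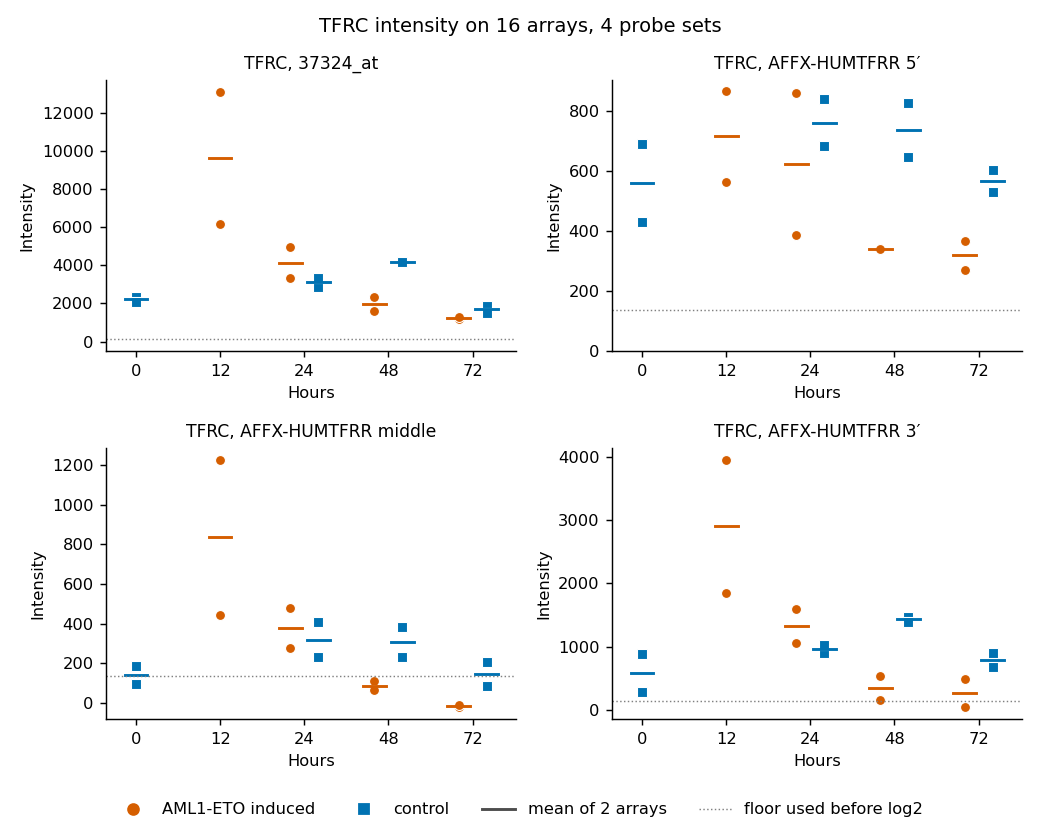
TFRC intensity on linear axes for its 4 probe sets, with the 5 hours evenly spaced, 1 point per array for induced and control cells, a bar at each group mean and a dotted line at the floor of 135.61. Induced cells at 12 h stand highest at the gene probe set (6199 and 13106), and at 48 h they lie below their controls at all 4 probe sets.

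At 24 h the gene probe set read 3354 and 4941 in induced cells and 2866 and 3356 in control cells. The lower induced array lay just under the higher control array, so the groups overlapped. The log2 difference of 0.39 (SE 0.30) did not pass the test (limma adjusted p = 0.992), and without the array labelled induced replicate 2 it was 0.11. At 48 h the order was the other way round. Induced cells read 1624 and 2319, against 4159 and 4199 in control cells, and the groups did not overlap. The log2 difference was -1.11 (SE 0.30; 95% interval -1.76 to -0.45), 2.15-fold lower in induced cells, with a limma adjusted p of 0.0207. The call was lost without induced replicate 1 (adjusted p = 0.163), without control replicate 1 (0.0924), without control replicate 2 (0.0933) and with no filter on low values (0.0768).

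At 72 h the gene probe set had its lowest group mean in each arm. Induced cells read 1185 and 1267, against 1852 and 1520.5 in control cells. The groups did not overlap, but the log2 difference of -0.45 (SE 0.30) did not pass the test (limma adjusted p = 0.288). Against control cells at 0 h, the induced cells at 72 h were 1.81-fold lower, with a log2 difference of -0.86 (SE 0.30) at a limma adjusted p of 0.0500333, just above the threshold. Median centring of the arrays gave 0.0274 there, and quantile normalization 0.0423.

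Control cells also varied over the time course. Their level at the gene probe set at 48 h lay 1.88-fold above that at 0 h, a log2 difference of 0.91 (SE 0.30) that did not pass the test (limma adjusted p = 0.416). Induced cells at 48 h were close to control cells at 0 h, with overlapping groups and a log2 difference of -0.19 (95% interval -0.84 to 0.46). The lower level at 48 h was thus measured against a control group that was itself the highest of the 4 control groups. The induced groups at all times and the later controls are set against the same 2 arrays of control cells at 0 h, which these comparisons share.

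Ordered by mean, the groups ran from induced 12 h (9652) over control 48 h (4179), induced 24 h (4147), control 24 h (3111), control 0 h (2222), induced 48 h (1972) and control 72 h (1686) to induced 72 h (1226). Neighbours in this order that did not overlap were induced 12 h and control 48 h, control 24 h and control 0 h, and control 72 h and induced 72 h. The other 4 neighbouring pairs overlapped. Over all 16 arrays the gene probe set spanned 11.1-fold between its lowest and highest array, against 1.99-fold for FTL and 2.34-fold for ACO1.

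The 3 control probe sets for the same receptor read its 5′ end, its middle and its 3′ end. They share the transcript, and so are no replicates of the condition, but they read it with other probes. Correlations of log2 intensity between the 4 probe sets over the 16 arrays were 0.675 to 0.912.

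The 3′ probe set read 1853 and 3955 in induced cells at 12 h, against 280.1 and 874.9 in control cells at 0 h. The induced arrays were both higher, by 5.47-fold in the fit, but the 2 control arrays lay far apart and the limma adjusted p was 0.0671. At 24 h it read 1050.2 and 1594 in induced cells, against 903 and 1023 in control cells, and at 72 h 492.1 and 45.6 in induced cells, against 892.6 and 683.6 in control cells. Both induced arrays were the higher ones at 24 h and the lower ones at 72 h, and neither difference passed the test. Without the array labelled induced replicate 2 the log2 difference at 24 h was 0.13, against 0.43 with it. At 48 h it read 527.4 and 159.7 in induced cells, against 1474 and 1390.7 in control cells. That difference, -2.30 on the log2 scale (SE 0.69) or 4.93-fold lower, passed the test (limma adjusted p = 0.0333). It did not pass without induced replicate 2 (adjusted p = 0.277), without either control array at 48 h (0.134 and 0.115), with a floor at the 30th percentile (0.108), on the asinh scale (0.0615), with no filter (0.123) or with no trend (0.0539).

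The probe set for the middle of the transcript was dim. At 12 h it read 444.8 and 1227 in induced cells, against 96.1 and 187.3 in control cells at 0 h, the first of these under the floor. The level in induced cells was at least 4.63-fold higher (limma adjusted p = 0.0405), a call lost under 11 of the 16 omissions of an array (adjusted p up to 0.192) and under 4 other settings, while the stricter filter left the probe set untested. At 48 h induced cells read 109.4 and 61.8, both under the floor, against 380.5 and 229 in control cells. They were at least 2.18-fold lower at a limma adjusted p of 0.171. It read 278.8 and 477.3 in induced cells at 24 h, against 229.4 and 407.7 in control cells, and -21 and -13.8 in induced cells at 72 h, against 85.5 and 206.7 in control cells. The log2 difference at 24 h was 0.25, and -0.13 without the array labelled induced replicate 2.

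The 5′ probe set separated the arms less at 12 h. It read 562.4 and 866.1 in induced cells at 12 h, against 429.4 and 688.5 in control cells at 0 h. The groups overlapped, and the log2 difference was 0.36 (SE 0.44; limma adjusted p = 0.697). At 48 h induced cells read 341.2 and 340.9, against 825.8 and 646.3 in control cells. The other 2 times gave 385.1 and 859.2 in induced cells at 24 h, against 681.3 and 838.7 in control cells, and 270.1 and 368.1 in induced cells at 72 h, against 603.9 and 528.2 in control cells. The groups overlapped at 24 h and not at 72 h. At 24 h the log2 difference was -0.39, and -0.97 without the array labelled induced replicate 2. At 48 h induced cells were 2.14-fold lower without overlap, at a limma adjusted p of 0.102 that fell to 0.0489 with median centring and 0.0302 with quantile normalization.

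The ratio of the 3′ to the 5′ signal of TFRC was highest in the 12 h group. Its log2 was 1.72 and 2.19 in induced cells at 12 h, against -0.62 and 0.35 in control cells at 0 h. At 24 to 72 h it ran from -1.44 to 1.45 in induced cells and from 0.29 to 1.11 in control cells, so it varied widely outside the 12 h group as well. The same ratio of GAPDH was -0.43 and -0.42 in induced cells at 12 h, and -0.58 and -0.52 in control cells at 0 h. That of ACTB was 0.28 and 0.33 in induced cells at 12 h, and -0.10 and 0.24 in control cells at 0 h. Over all 16 arrays GAPDH stayed between -0.58 and -0.31 and ACTB between -0.10 and 0.47. Both housekeeping ratios were thus also higher in the 12 h group by less than that of TFRC, and their part in the TFRC result was not tested. In bulk samples like these, fewer cells with a transcript and less of it per cell cannot be told apart.

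Counted over the list, the 12 h group had 2 of 7 tested probe sets called against control cells at 0 h, both for TFRC and both higher, where 3.32% of all tested probe sets were called and 1.18% were called higher. At 48 h 2 of 7 were called, both for TFRC and both lower, where 19.2% of all were called and 8.69% were called lower. At 72 h limma called 0 of 7, of which 2 had an unadjusted p under 0.05, where 30% of all were called. There 1 to 2 were called under quantile normalization, with no trend, with the replicate block or with certain single arrays left out. At 24 h limma called 0 of 7, where 0% of all were called. An unadjusted p under 0.05 was found at 24 h for 0 of the 7 and for 397 of all.

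In the mean of the 24, 48 and 72 h differences 2 of 7 were called, both for TFRC and both lower, where 32% of all were called and 13.4% were called lower. They were the 5′ probe set, with a log2 difference of -0.78 (SE 0.25; limma adjusted p = 0.0309), and the 3′ probe set, with -1.16 (SE 0.40; limma adjusted p = 0.0409) and 1 induced array at the floor. At the gene probe set the mean difference was -0.39 (SE 0.17; limma adjusted p = 0.108), and with median centring it was -0.53 and called (0.0221). Without the array labelled induced 24 h replicate 2 the 5′ probe set kept its call, at -0.97 and an adjusted p of 0.0117, the 3′ probe set lost it (0.0550), and the gene probe set stood at -0.48 (0.0741). The middle probe set then stood at -0.52, FTL at -0.20, ACO1 at 0.09 and SLC11A2 at 0.77, and limma called none of these 4 (adjusted p 0.285, 0.427, 0.791 and 0.0822). At 24 h, without it, the log2 difference was -0.09 for FTL, 0.00063 for ACO1 and 0.37 for SLC11A2. With 1 array left out the 5′ probe set lost its call in 7 of 16 cases (adjusted p up to 0.101) and the 3′ probe set in 10 of 16 (up to 0.127). With control cells at 0 h as the baseline of all times, limma called 0 of 7 members and 1365 of all 7827 probe sets.

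Against control cells at 0 h, limma called 0 of 7 in induced cells at 24 h, where 1.07% of all were called. The same count was found in induced cells at 48 h, where 16% of all were called, and at 72 h, where 28% were. It was 0 of 7 as well for control cells at 24, 48 and 72 h, where 0.498%, 0.0128% and 0.0383% of all were called. The unadjusted p was under 0.05 for 2, 0 and 1 of the 7 in induced cells at 24, 48 and 72 h, and for 0, 2 and 0 in control cells at these times. An F test asked whether the 24, 48 and 72 h differences of a probe set were unequal. It called 0 of 7 members, 2 of which had an unadjusted p under 0.05, where it called 10.9% of all. It gave the TFRC gene probe set an adjusted p of 0.0896.

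**Figure D2:**
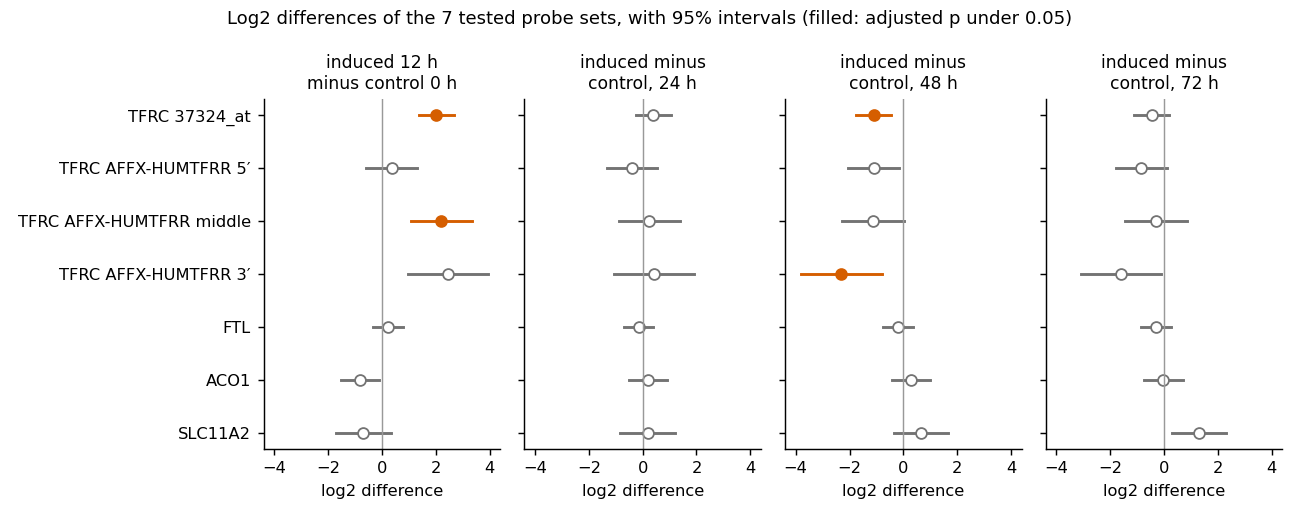
Log2 differences with 95% intervals for the 7 tested member probe sets, with induced minus control at 24, 48 and 72 h and induced 12 h minus control 0 h in separate panels and filled points where the adjusted p was under 0.05. The filled points are all TFRC probe sets, 2 to the right at 12 h and 2 to the left at 48 h.

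FTL, the light subunit of ferritin, was the brightest member and the steadiest. All 16 arrays lay between 14681 and 29154, with a coefficient of variation of 19.9%, against 82.9% for TFRC at its gene probe set. At 12 h induced cells read 24682 and 22083, against 18269 and 21705 in control cells at 0 h, a log2 difference of 0.23 that did not pass the test. At 24 h induced cells read 16968 and 15686, against 21837 and 14961 in control cells, with overlap. At 48 h the values were 16776 and 17914 in induced cells and 19626 and 20188 in control cells, without overlap, at a log2 difference of -0.20. At 72 h they were 14681 and 21703 in induced cells and 29154 and 16462 in control cells, with overlap.

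FTL was called in none of its 10 pairwise contrasts, whose log2 differences ran from -0.30 to 0.23 and whose lowest limma adjusted p was 0.411. Averaged over the 3 times, its difference was -0.21 with a 95% interval of -0.53 to 0.10. A p that misses the threshold at 2 arrays a group does not show that FTL stayed level. All neighbours in the order of the FTL group means overlapped, from induced 12 h (23383) at the top to induced 24 h (16327) at the bottom.

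ACO1 is both the cytosolic aconitase and, without its iron-sulphur cluster, the RNA-binding protein IRP1. At 12 h induced cells read 559.1 and 652.5, against 871 and 1306 in control cells at 0 h. The 12 h group had the lowest mean of the 8 and overlapped none of the others, while its log2 difference from control cells at 0 h, -0.82 (SE 0.33), did not pass the test (limma adjusted p = 0.181). The 3 same-time differences were smaller. Induced cells read 853.3 and 1116 at 24 h, against 668.3 and 1088 in control cells, and 1084 and 964.3 at 48 h, against 792.1 and 870.2 in control cells. At 72 h they read 840.5 and 1026, against 821 and 1082 in control cells. Groups overlapped at 24 and 72 h and not at 48 h, where the log2 difference was 0.30 (limma adjusted p = 0.598).

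SLC11A2, the endosomal iron transporter, lay near the floor, and 7 of its 16 values exceeded it. Control cells at 0 h read 287.2 and 235.1, above the floor, and the 6 control arrays at 24, 48 and 72 h all read under it, between -258.8 and 108. Induced cells read 95.8 and 192.2 at 12 h, 174.8 and 22.2 at 24 h, 18.8 and 333.5 at 48 h, and 234.1 and 470 at 72 h. At 72 h both induced arrays thus lay above the floor and both control arrays, with -258.8 and 108, under it.

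The 72 h difference of SLC11A2 was at least 2.45-fold, with a limma adjusted p of 0.0529 that did not pass. It passed with no mean-variance trend (0.0392) and with the replicate number as a block (0.0483). Averaged over the 3 times it was 0.71 on the log2 scale (SE 0.27; limma adjusted p = 0.0613), a value that is no bound because induced arrays lay at the floor too. Against control cells at 0 h the mean had the opposite sign, -0.23. As the probe set was tested only through 2 induced arrays, 48 h replicate 2 and 72 h replicate 2, a level higher in induced cells is partly what let it be tested.

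**Figure D3:**
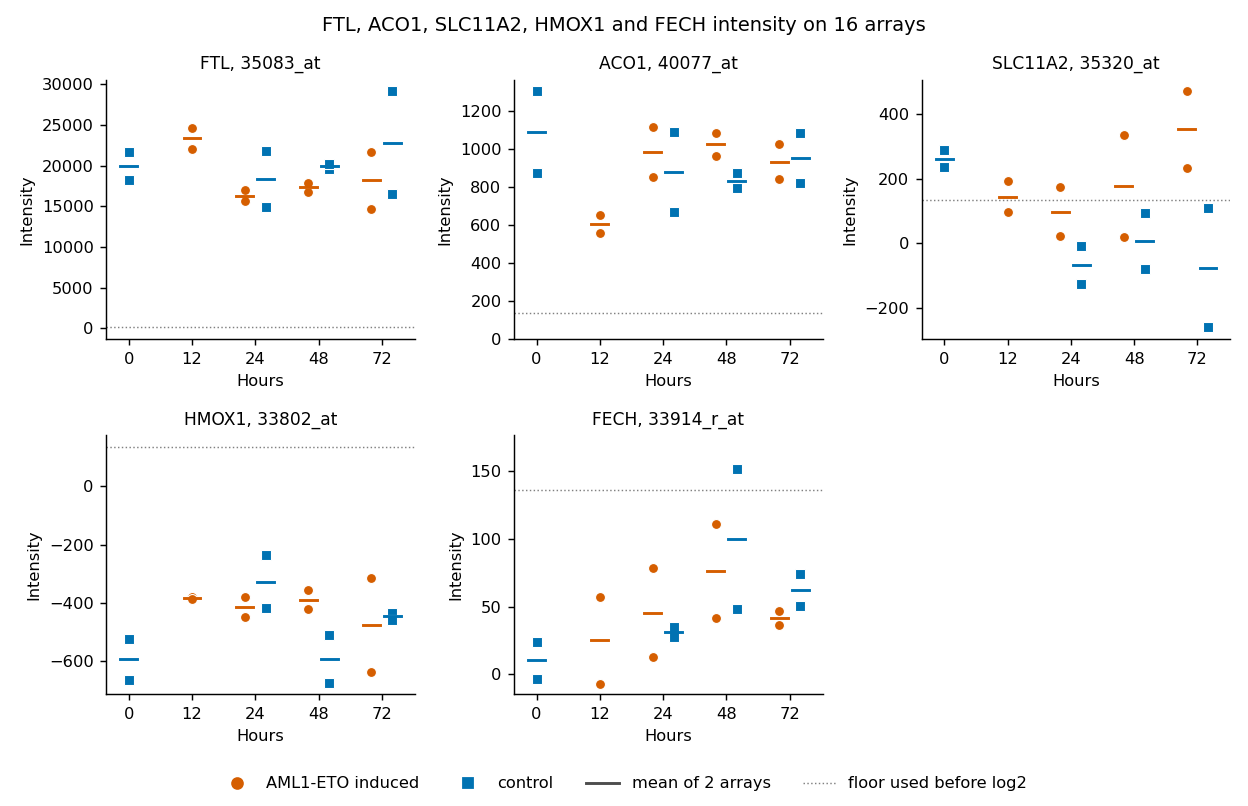
Intensities of FTL, ACO1, SLC11A2, HMOX1 and FECH on linear axes, with the 5 hours evenly spaced, 1 point per array for induced and control cells, a bar at each group mean and a dotted line at the floor of 135.61. FTL and ACO1 lie above the floor on all 16 arrays, SLC11A2 straddles it, HMOX1 is below 0 throughout and FECH has 1 array above the floor.

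HMOX1 and FECH gave too little signal to test. HMOX1 read below 0 on all 16 arrays, with a lowest, median and highest value of -636, -383.6 and -314.5 on induced arrays and of -673.4, -483.4 and -234.5 on control arrays. FECH read between -6.87 and 110.8 on induced arrays, with a median of 44.3, and between -3.18 and 151.4 on control arrays, with a median of 41.6. No fold change was computed for either gene.

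For each member read by a tested probe set, the 3 probe sets of other genes with the most similar log2 values over the 16 arrays were looked up among 6874. The nearest to the TFRC gene probe set were ISG20L2 (r = 0.933) and both PTPN7 probe sets (r = 0.905 and 0.903). The nearest to FTL were ACTB (r = 0.961), RPL19 (r = 0.955) and RPL31 (r = 0.936). The nearest to ACO1 were TAF1 (r = 0.867), KCTD12 (r = 0.865) and JAG1 (r = 0.863). SLC11A2, with most values at the floor, had HPX (r = 0.913), N4BP2L2 (r = 0.882) and GAD1 (r = 0.877). These correlations describe 16 arrays that share their scaling and, at low intensity, their floor.

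The rest of the iron and haem pathways was read from 5 lists of 111 other genes, of which 65 had a probe set and 54 were tested, with the brightest probe set standing for a gene. In the mean of the same-time differences 10 of 54 were called higher and 12 lower, that is 18.5% and 22.2%, where 18.5% and 13.4% of all tested probe sets were. Of these calls, 5 higher and 8 lower came from the antioxidant list of NRF2 targets, NFE2L2 (NRF2) itself and KEAP1, with 19 genes tested. The shares of the 54 genes therefore rest largely on that list and not on the iron and haem lists. Their median log2 difference was 0.03, against 0.10 over all probe sets tested. At 24 h limma called 0 of 54, with 4 at an unadjusted p under 0.05, where 0% of all were called. At 48 h 4 were higher and 7 lower, that is 7.41% and 13%, where 19.2% of all were called either way. At 72 h 9 were higher and 10 lower, that is 16.7% and 18.5%. Of all tested probe sets 30% were called there in either direction, and 53.6% of those calls were higher. At 12 h 1 of 54, or 1.85%, was called against control cells at 0 h, where 3.32% of all were. It was ABCB6, a porphyrin transporter, at least 4.32-fold lower in induced cells (limma adjusted p = 0.0446).

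Among other genes of iron uptake, 2 of 7 were lower in induced cells and 0 higher. They were the metal transporters SLC39A8 (ZIP8), with a mean of 2727 in induced cells and 4148 in control cells, and SLC39A14 (ZIP14), with 3124 in induced cells and 4633 in control cells. Their log2 differences were -0.68 (SE 0.13; limma adjusted p = 0.00127) and -0.59 (SE 0.12; 0.00171). The list's median was -0.01. The 2 lower genes are 28.6% of the list, where 13.4% of all tested probe sets were called lower and 18.5% higher.

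Among genes of storage, export and systemic control, 1 of 5 was higher and 0 lower. NCOA4, the receptor that takes ferritin to the lysosome for breakdown, averaged 9527 in induced cells and 6259 in control cells. Its log2 difference was 0.56 (SE 0.11; limma adjusted p = 0.00134). The list's median was -0.03. The 1 higher gene is 20% of the list, where 18.5% of all tested probe sets were called higher and 13.4% lower.

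In the list of the iron regulatory system, mitochondrial iron and iron-sulphur clusters, 3 of 11 were higher and 1 lower, with a median of 0.18. Those are 27.3% and 9.09%, where 18.5% of all tested probe sets were called higher and 13.4% lower. ABCB6 was higher by 1.01 on the log2 scale in the mean of the 3 times (SE 0.30; limma adjusted p = 0.0184), with control arrays at the floor, although its log2 difference was -0.28 at 48 h. Its call was lost with the floor at the 50th percentile (0.46; 0.126) and with some single arrays left out (log2 difference 0.80 to 1.23). The sign turned with control 0 h as the baseline (-0.16). NUBP1, a scaffold of cytosolic iron-sulphur assembly, was higher by 0.72 on the log2 scale (SE 0.21; 0.0168). Its call was lost with some single arrays left out, where the log2 difference ran from 0.57 to 0.86. SKP1, a subunit of the ubiquitin ligase that degrades IRP2 among many other targets, was higher by 0.42 (SE 0.13; 0.0216). That call was lost with no filter (0.0631), median centring (0.161), no trend (0.0544) and in 4 of 16 omissions of an array. HSPA9, the mitochondrial chaperone that serves cluster transfer, averaged 3870 in induced cells and 5126 in control cells, a log2 difference of -0.52 (SE 0.14; 0.0115).

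Among genes of haem synthesis and handling, 1 of 12 was higher and 1 lower, with a median of 0.06. Each is 8.33% of the list, where 18.5% of all tested probe sets were called higher and 13.4% lower. ALAS1, the rate-limiting enzyme of haem synthesis outside erythroid cells, averaged 3958 in induced cells and 2801 in control cells, a log2 difference of 0.48 (SE 0.11; limma adjusted p = 0.00425). TSPO, a porphyrin-binding protein of the outer mitochondrial membrane, averaged 11709 in induced cells and 16086 in control cells, a log2 difference of -0.47 (SE 0.09; 0.00155).

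**Figure D4:**
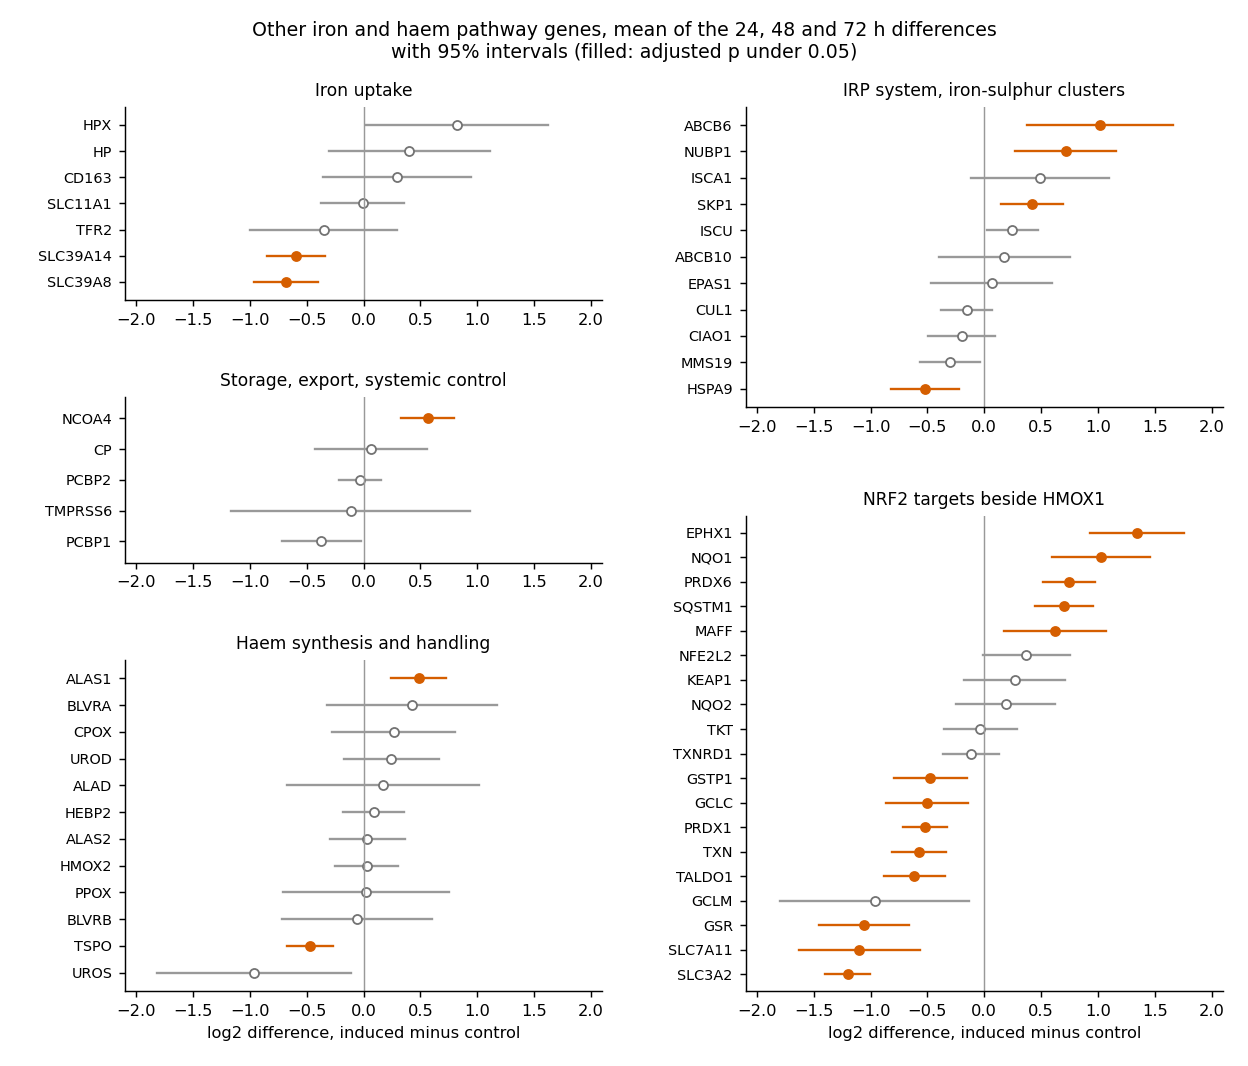
Mean of the 24, 48 and 72 h log2 differences, induced minus control, with 95% intervals for the 54 tested genes of the 5 other iron and haem lists, 1 row per gene, filled where the adjusted p was under 0.05. Filled points number 10 to the right of 0 and 12 to the left, and 13 of them lie in the panel of NRF2 targets.

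HMOX1 is a target of NRF2 (NFE2L2), the activator of antioxidant genes, and did not pass the filter on low values. The list read here holds other NRF2 targets, and also NFE2L2 itself and KEAP1. Of 19 tested, 5 were higher and 8 lower, with a median of -0.12. Those are 26.3% and 42.1%, where 18.5% of all tested probe sets were called higher and 13.4% lower. With control 0 h as the baseline 3 were higher and 2 lower, where 1365 of all 7827 tested probe sets were called. With the stricter filter 3 were higher. NQO1, a quinone reductase, averaged 1343 in induced cells and 656 in control cells, a log2 difference of 1.03 (SE 0.20; limma adjusted p = 0.00149). EPHX1, an epoxide hydrolase, was higher by 1.34 in the fit (limma adjusted p = 0.000136), with arrays of both arms at the floor. PRDX6, a peroxiredoxin, was higher by 0.75 (SE 0.11; 0.000137), and all 6 induced arrays at 24 to 72 h exceeded all 6 control arrays.

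The lower members included both chains of the cystine transporter. SLC3A2 averaged 5984 in induced cells and 12511 in control cells, a log2 difference of -1.20 (SE 0.09; limma adjusted p = 8.26e-07). SLC7A11 averaged 700.2 in induced cells and 1297 in control cells, a log2 difference of -1.10 (SE 0.25; 0.00365). GSR, glutathione reductase, averaged 823 in induced cells and 1242 in control cells, a log2 difference of -1.06 (SE 0.18; 0.000644). With control 0 h as the baseline, SLC7A11 (adjusted p = 0.0813) and GSR (0.0902) lost their calls, as did SLC39A14, NCOA4, NUBP1, SKP1, HSPA9 and ALAS1 (0.0549 to 0.240).

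Marker lists moved beside these values. Of 9 tested monocytic markers, 3 (33.3%) were higher in the mean of the same-time differences and 0 lower. Of all tested probe sets 18.5% were called higher there and 13.4% lower. The 3 higher markers were CD4, MNDA and ITGAX, named after their values were seen. Uncalled markers of the list also went the other way. At 72 h CD14 read -221.3 and -32.6 in induced cells, against 291.7 and 106.5 in control cells. FCGR2A read 633.2 and 399.9 in induced cells at 72 h, against 830.2 and 1029 in control cells. LYZ (lysozyme), not called in that mean, was higher at 12 h, with a mean of 6974 in induced cells and 2197 in control cells at 0 h (limma adjusted p = 0.0485). Uninduced cells were above that 0 h level too, with 12394 and 5298 at 24 h, where induced cells read 10277 and 9505. Of 9 erythroid markers limma called 0 in the mean of the 3 times, with 1 at an unadjusted p under 0.05. Of 7 lymphoid markers 1 was lower, NKG7, with arrays of both arms at the floor. The part of these markers in the TFRC values was not tested.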

How the data were processed

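RNA of 16 U937 samples was read on Affymetrix U95Av2 arrays. The authors deposited 1 linear intensity per probe set and array; a scale factor accompanies every array, per the labels. No label names the program that summarised the probe sets. Of the deposited intensities 25.8% are below 0. No further scaling was applied. Values were floored at the 40th percentile (135.61) and log2 was taken. The 64 control probe sets other than those for the transferrin receptor were left out. Symbols came from the platform annotation, which can be old: 10961 probe sets had 1 symbol, 546 several and 1119 none.

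Group means were fitted with limma 3.58.1 in R 4.3.3 (lmFit, eBayes with trend), leaving 8 residual degrees of freedom and a median prior of 5.19. Tests are two-sided, adjusted over all 7827 tested probe sets, and intervals are 95%. The number of arrays limits the precision. "At least" marks a fold whose lower side lay at the floor on some arrays and whose higher side did not. The code was tested on simulated data with known changes.

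The members, lists and tests were chosen with earlier results of these data known. All members are named. Of the other lists the called genes with the largest and smallest mean differences are named, up to 3 each way. Sequences are from RefSeq. The main fit did not pair arrays by replicate number. Deviations of same-numbered arrays correlated at -0.153 to 0.250 over 28 pairs of groups, 7 of them over 0.1. No label says whether the numbers mark a batch, and these correlations cannot settle it. Alternatives covered the floor, the filter, the scaling, the variance trend, a replicate block, the baseline and each array left out.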

Additional observations from a re-analysis of the deposited data

Results flagged for a closer look

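For 4 of the named pathway genes the F test found that the 24, 48 and 72 h differences between induced and control cells were unequal. It called 10.9% of all tested probe sets. The named genes were picked for their called differences on these same arrays, so their count is no independent result. GSR had an adjusted p of 0.00248, with log2 differences of 0.38 at 24 h, -0.92 at 48 h and -2.64 at 72 h. SLC3A2 had an adjusted p of 0.00732, with -0.51 at 24 h, -1.77 at 48 h and -1.33 at 72 h. EPHX1 had an adjusted p of 0.00587, where all arrays lay at the floor at 24 h and the level in induced cells was higher by at least 1.28 on the log2 scale at 48 h and at least 2.74 at 72 h. TSPO had an adjusted p of 0.0464, with -0.09 at 24 h, -0.34 at 48 h and -0.99 at 72 h. None of the 7 tested member probe sets passed this test. The TFRC gene probe set came nearest, with an adjusted p of 0.0896, and 1 member was called with median centring.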

How the results depend on the processing

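Of 1022 member values recomputed under the alternatives, 935 kept their direction and their side of the threshold, 50 lost their call, 24 gained one and 13 changed sign; of 389 values of the named pathway genes 368 were kept, 20 lost their call and 1 changed sign. Most member values were not called in the main fit and so had no call to lose, and the 50 losses all fell on called TFRC probe sets. Leaving out an array of a group outside a comparison also leaves its log2 difference unchanged. The 935 are therefore no measure of how stable the calls were. The causes were not tested. The count of called members in the mean over times (2) was 1 with the floor at the 30th or the 50th percentile, 0 with no filter, 0 with control 0 h as the baseline, 3 with median centring, 3 on the asinh scale, and 0 to 3 with 1 array left out. At 48 h (2) it was 1 with the floor at the 30th percentile, 1 on the asinh scale, 1 with no trend, 0 with no filter, 3 with quantile normalization, 3 with median centring, and 0 to 2 with 1 array left out. At 72 h (0) it was 1 with quantile normalization, 1 with no trend and 0 to 2 with 1 array left out. At 12 h (2) it was 1 with the floor at the 30th percentile, 1 on the asinh scale, 1 with no filter, 1 with the stricter filter, 3 with median centring, and 1 to 2 with 1 array left out. For induced 72 h against control 0 h (0) it was 1 with the stricter filter, quantile normalization or median centring and 0 to 1 with 1 array left out. For the F test (0) it was 1 with median centring and 0 to 1 with 1 array left out. With the replicate number as a block the counts stayed 2 in the mean, 0 at 24 h, 2 at 48 h, 2 at 12 h and 0 for the F test, and were 1 at 72 h (SLC11A2, adjusted p = 0.0483) and 1 for induced 72 h against control 0 h (TFRC, 0.0358). Signs changed with control 0 h as the baseline for SLC11A2 (-0.23), ACO1 (-0.13), the middle TFRC probe set (0.24) and ABCB6 (-0.16), and with quantile normalization for FTL at 24 h (0.015). With 1 array left out, differences that changed sign ran from -0.42 to 0.12 (FTL, 24 h), -0.16 to 0.55 (ACO1, 24 h), -0.97 to 0.18 (5′ TFRC, 24 h), -0.16 to 0.67 (middle TFRC, 24 h), -0.71 to 0.12 (FTL, 72 h), -0.22 to 0.18 (ACO1, 72 h) and -0.45 to 0.064 (TFRC, induced 48 h against control 0 h). As deposited, the median of all tested probe sets was -0.15 at 12 h, 0.10 in the mean and 0.18 at 72 h; median centring moved the share of calls that were higher at 12 h to 73.6% (35.4% as deposited; 56.0% with quantile normalization), and to 44.8% in the mean (58.0%), 43.7% at 48 h (54.7%) and 43.2% at 72 h (53.6%). HMOX1, FECH, SLC11A2 and the middle TFRC probe set are limited by their signal over background.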
